A study of Mus musculus with 35 samples.

Results

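The variable (V) segments of the T cell receptor alpha chain (Trav genes) and beta chain (Trbv genes) were followed in RNA of sorted mouse CD8 T cells. A segment was counted as a member when its gene symbol in the deposited files began with Trav or Trbv. This gave 132 of the 38924 genes of the count table, 109 alpha and 23 beta segments. No count in any library was found for 6 alpha segments, while each beta segment was counted somewhere. All cells were from C57BL/6 mice and carried CD3e and CD8, with high CD44 and low CD62L, markers of T cells that have met antigen. Stimulated cells were held with PMA and ionomycin for 2 h after the sort, a drug pair that bypasses the receptor. Whether unstimulated cells were held for the same time is not stated in the labels. The study has 35 libraries in 7 groups. Stimulated brain cells came from aged females (n = 5) and aged males (n = 4). Unstimulated brain cells came from aged females (n = 5), aged males (n = 6) and young males (n = 5). Spleen cells came from aged males only, stimulated (n = 5) or unstimulated (n = 5). All groups passed the same sort. The labels say neither how many cells went into a library nor whether libraries of a group came from separate animals, so p-values measure only the spread between these samples. Libraries are called by the replicate numbers of their labels, which no 2 groups share.

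Each developing T cell assembles a beta chain gene and then an alpha chain gene by joining a V segment to shorter downstream segments, ahead of a constant region. The V segment encodes most of the variable domain, which contacts peptide and MHC, and the descendants of a cell keep its choice. In a population of many clones V segment RNA is spread over many segments, and in one of few clones over few. Mouse alpha V segments on chromosome 14 were multiplied by duplication, so that many exist in copies marked "d" and "n" in the symbol, such as Trav16, Trav16d-dv11 and Trav16n. Names with "dv" belong to segments that can also join the delta locus. Mouse beta V segments lie on chromosome 6 and are fewer and less alike.

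The ends of the segments that led the results are printed from the GENCODE M21 transcripts (GRCm38, the assembly also called mm10, forward strand), 5′ to 3′. In each case the last 60 bases of the annotated segment are given. In the sequences of the leading segments the capitals mark the codon of the conserved cysteine that opens CDR3, the third complementarity-determining region, the stretch where clones with the same V segment differ. Trav4-4-dv10 (chr14:53683647-53684177), Trav13n-4 (chr14:53362267-53364106), Trbv19 (chr6:41178375-41179048) and Trbv13-2 (chr6:41121396-41121832) set 3 spleen libraries apart, and Trbv16 (chr6:41151740-41152230) and Trbv3 (chr6:41048290-41048828) were counted in all 16 unstimulated brain libraries.
Trav4-4-dv10: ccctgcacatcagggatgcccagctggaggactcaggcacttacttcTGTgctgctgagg
Trav13n-4: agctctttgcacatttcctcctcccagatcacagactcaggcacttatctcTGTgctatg
Trbv19: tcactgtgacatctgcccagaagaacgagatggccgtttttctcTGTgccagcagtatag
Trbv13-2: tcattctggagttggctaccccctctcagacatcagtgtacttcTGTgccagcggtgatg
Trbv16: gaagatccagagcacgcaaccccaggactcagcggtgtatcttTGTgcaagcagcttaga
Trbv3: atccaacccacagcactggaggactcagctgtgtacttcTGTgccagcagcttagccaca

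The copies of an alpha segment can be close enough to share reads. The 3 Trav16 copies are shown because they led 9 libraries between them; here the capitals mark the bases at which the copies differ within the last 60. They are Trav16 (chr14:53743104-53743705), Trav16n (chr14:53351028-53351621) and Trav16d-dv11 (chr14:53047287-53047821).
Trav16: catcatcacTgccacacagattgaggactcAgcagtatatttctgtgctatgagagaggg
Trav16n: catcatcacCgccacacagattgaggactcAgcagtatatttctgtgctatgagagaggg
Trav16d-dv11: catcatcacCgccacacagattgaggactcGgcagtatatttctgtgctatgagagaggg
Over the 353 bases aligned from the 3′ end, Trav16 differed from Trav16n at 40 bases and from Trav16d-dv11 at 28. Other copies were identical in GENCODE M21. Trav6-6 and Trav6d-6 were identical over all 344 bases of their M21 transcripts, as were Trav6d-7 and Trav6n-7 over 358. The deposited counts were the same for Trav6d-7 and Trav6n-7 in every library. They separated Trav6-6 from Trav6d-6 in places, with 0 and 745 counts in unstimulated aged male brain library 11. Of the 125 segments with a transcript in GENCODE M21, 28 alpha and 0 beta segments had an identical copy. Only 46 of the 125 had the length given in the authors' files, so these comparisons need not describe the sequences that were counted. The value of a single alpha copy is therefore uncertain, and the results for alpha were also computed with the 109 segments merged into 49 copy groups or 21 families.

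Library totals ran from 1.16 to 25 M counts, and the V segments made up 1.6e-05% to 0.244% of them. The libraries of stimulated brain cells stood apart. They held 1.16 to 9.20 M counts, 2271 to 6769 detected genes and 38.5% to 69.7% mitochondrial counts, against 6456 to 15174 detected genes and 8.28% to 20.8% mitochondrial counts in the other 26 libraries. The summed level of 9 CD8 alpha beta T cell markers (among them Cd3e, Cd8a, Cd8b1, Trac and Trbc2) was 372 to 853 CPM (counts scaled to a common library total) in stimulated aged female brain and 93.4 to 383 CPM in stimulated aged male brain. In unstimulated brain it was 3143 to 4244 CPM in aged females, 3346 to 4332 CPM in aged males and 3045 to 3816 CPM in young males. In spleen it was 1234 to 2605 CPM in stimulated and 2974 to 3937 CPM in unstimulated cells. In the spleen, unstimulated library 33 and stimulated libraries 38 and 39 shared leading V segments, so results that rest on the spleen are also given without them where this changes a call. Cd4 had a mean of at most 11.3 CPM in every group. The summed level of 4 CD4 T cell markers, Cd4 among them, reached 193 CPM in stimulated and 55.6 CPM in unstimulated spleen. In unstimulated brain it reached 155 CPM in aged females, 145 CPM in aged males and 197 CPM in young males. Summed over 5 B cell markers, unstimulated spleen held 219 to 726 CPM and unstimulated aged male brain 0.4 to 28.9 CPM. The bearing of these levels on the V results was not tested. CPM refer to the unscaled library total unless scaling by TMM, edgeR's correction of library sizes, is named. In a bulk library, fewer cells with a segment and less RNA of it per cell cannot be told apart.

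The usage of V segments was narrow in the brain of aged males and broad in the spleen of aged males. The measure of breadth was the effective number of segments, the inverse Simpson index, which is the number of equally abundant segments that would give the same chance of drawing the same segment in 2 random counts. It was computed for chains with at least 50 counts. For alpha segments it was 4.01 ± 1.52 in unstimulated brain (SD, n = 6; lowest 2.47, median 3.92, highest 6.66). In unstimulated spleen it was 23.1 ± 11.96 (SD, n = 5), with 24.7, 31.3, 19.1, 4.96 and 35.6 in libraries 30 to 34. The ranges overlapped through spleen library 33 alone, and the exact two-sided permutation test over samples gave p = 0.00866 (0.0423 after Benjamini-Hochberg adjustment over the 40 tests of usage). For beta segments it was 3.13 ± 1.11 in brain (lowest 1.71, median 3.27, highest 4.40) and 9.16 ± 1.79 in spleen, where libraries 30 to 34 gave 9.70, 9.82, 9.999, 5.98 and 10.3. Here every brain library was below every spleen library, and the exact permutation p of 0.00433, adjusted 0.0423, was the smallest these group sizes allow. With alpha copies merged the effective number was 3.02 in brain and 13.6 in spleen (adjusted p = 0.0423 by the same exact test). The groups again differed.

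Brain libraries also held fewer segments. Between 23 and 31 alpha segments had a count in unstimulated aged male brain (mean 26.8 ± 3.54), against 52 to 79 in unstimulated spleen (70.2 ± 10.5). Between 8 and 12 beta segments were detected in brain (10 ± 1.90) and 17 to 21 in spleen (19.4 ± 1.52). Neither pair of groups overlapped, and both exact permutation tests gave an adjusted p of 0.0423. The alpha counts behind this were 6176 to 10956 per library in brain (median 9528) and 3682 to 7896 in spleen (median 4140). Fewer genes of any kind were also detected in these brain libraries, 8979 to 10756 against 14750 to 15174 in the spleen libraries. Library totals were at least 10.3 M counts in brain and at most 14.7 M in spleen. The part of this gap in detected genes in the segment numbers was not tested. With every library thinned to 50 counts of a chain, brain held 7.50 alpha segments and spleen 25.4, with 5.52 and 13.1 beta segments. Segments holding 90% of a library's alpha counts numbered 3 to 8 in brain (median 5) and 18 to 47 in spleen (median 39). For beta they numbered 2 to 5 in brain (median 4) and 9 to 12 in spleen (median 11).

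The leading beta segment took 50.5% ± 16.1 of beta counts in unstimulated aged male brain and 20.4% ± 6.06 in spleen, with no overlap between the groups (adjusted p = 0.0423, exact permutation test). The leading alpha segment took 41.6% ± 14.3 in brain and 17.1% ± 14.2 in spleen, which did not pass after adjustment (p = 0.0216, adjusted 0.0722, exact permutation test). Spleen library 33, described below, moved this value: without it the spleen mean was 10.9% and the adjusted p was 0.0381. Leaving out brain library 7, 8, 9, 10 or 12 in turn put the 5 passing tissue measures at adjusted p-values of 0.0529 to 0.0577. Leaving out spleen library 30, 31, 32 or 34 put the effective number of alpha segments at 0.0693. Without brain library 11 or spleen library 33 all 5 measures still passed. Smaller groups allow only larger exact p-values, and the part of group size in these changes was not tested. All measures kept their direction.

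**Figure D1:**
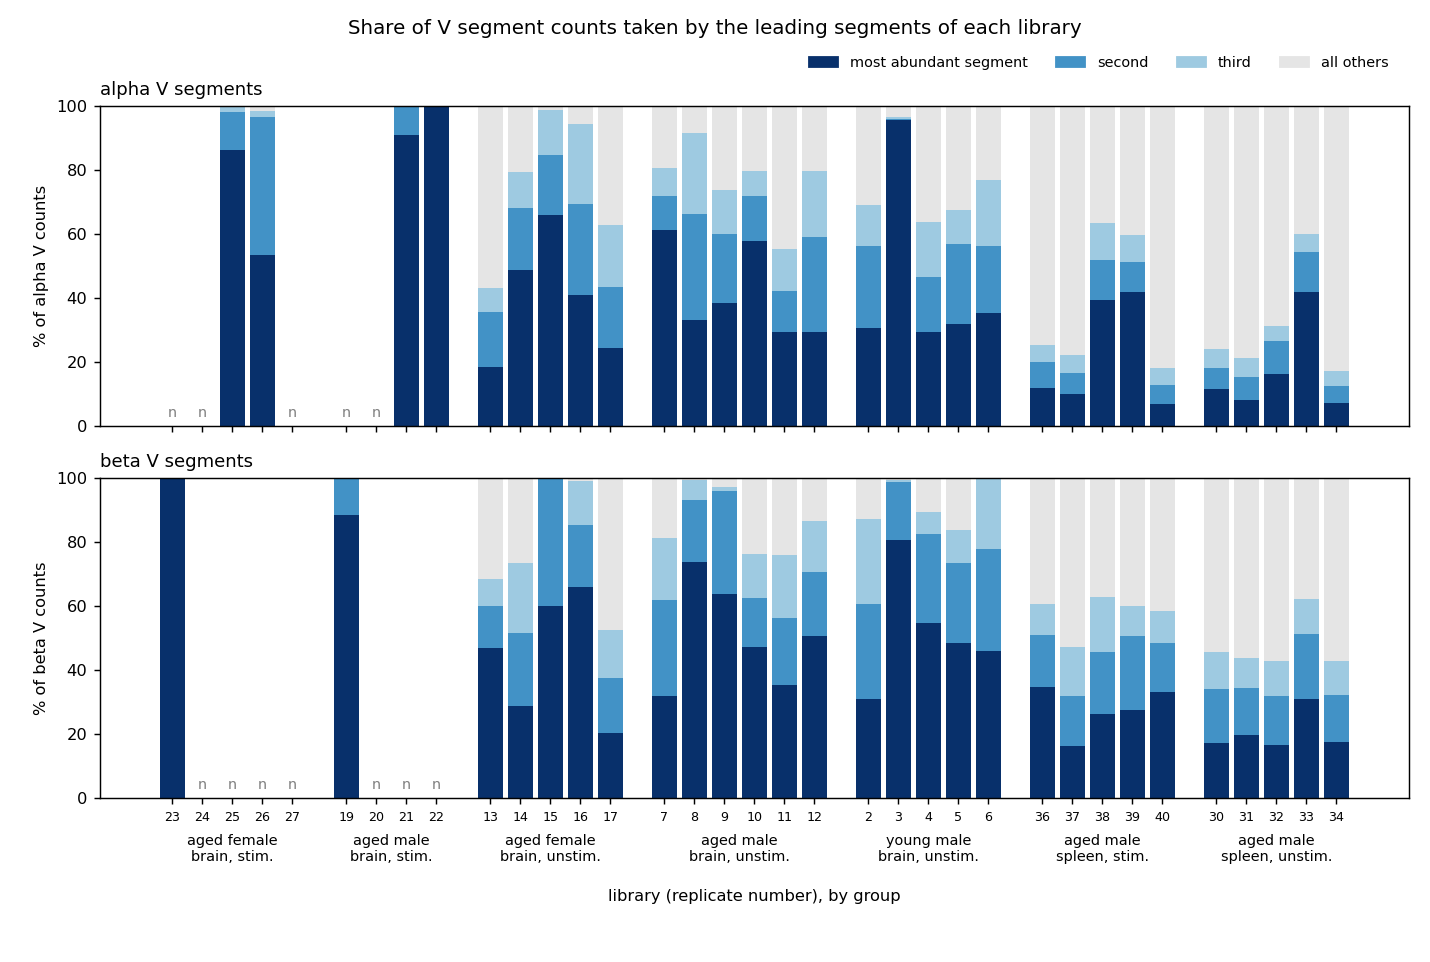
Share (% of the chain's V counts) of the 3 most abundant V segments in each library, alpha above and beta below, with libraries on the x axis by group and replicate number; "n" marks libraries with under 50 counts of the chain. For alpha, the dark bars of unstimulated brain libraries are tall in most libraries, while those of the spleen are short except in libraries 33, 38 and 39. For beta, the dark bars run from 16.2% to 34.6% in spleen and from 20.4% to 80.7% in unstimulated brain, so the ranges overlap.

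**Figure D2:**
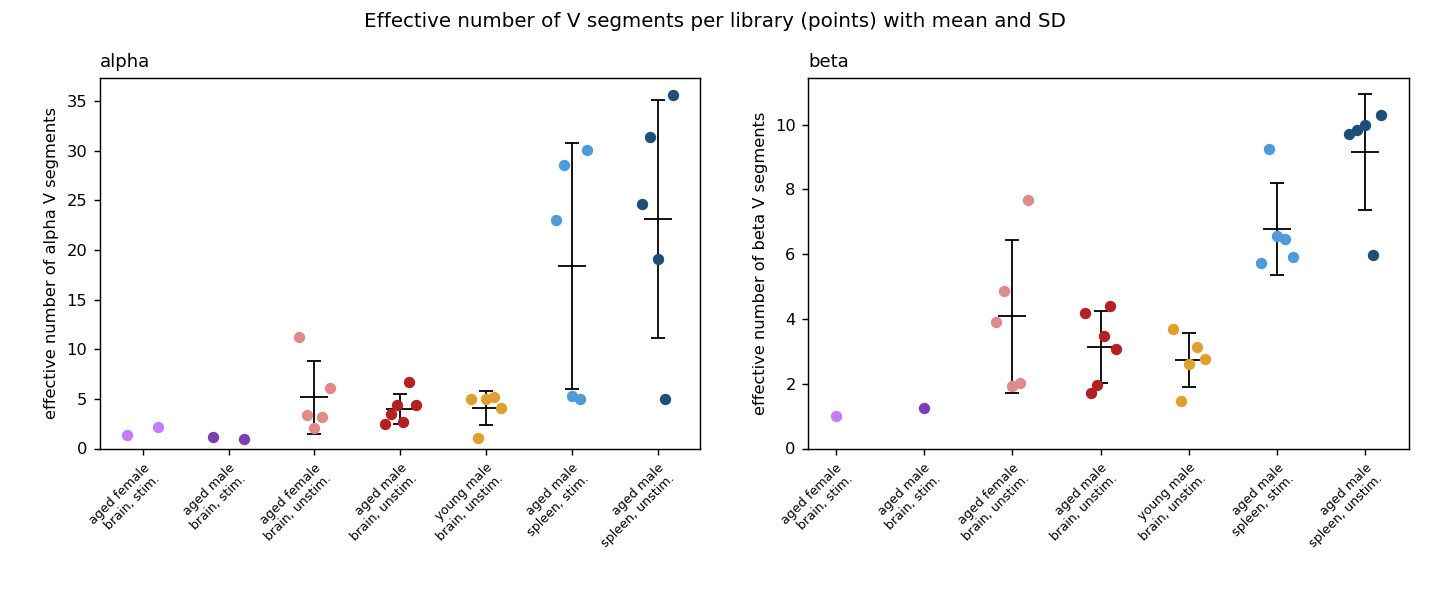
Effective number of alpha (left) and beta (right) V segments in each library with at least 50 counts of the chain (points), with group means and SD. Unstimulated aged male brain lies at 2.47 to 6.66 for alpha, and unstimulated aged male spleen at 4.96 to 35.6.

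Which segment led differed from library to library in the brain. In unstimulated aged male brain, alpha counts were led by 6 different segments in 6 libraries. Trav7d-3 took 61.3% of alpha counts in library 7, Trav6d-6 33.1% in library 8, Trav5-4 38.6% in library 9, Trav16n 57.7% in library 10, Trav12-3 29.3% in library 11 and Trav14d-1 29.6% in library 12. Beta counts were led by Trbv16 in libraries 7 (31.95%) and 11 (35.5%), by Trbv13-1 in library 8 (73.8%), Trbv5 in library 9 (63.7%), Trbv29 in library 10 (47.1%) and Trbv13-3 in library 12 (50.7%). In library 8 Trav6-6, a copy identical in GENCODE M21, held 3608 counts beside 3611 of Trav6d-6. Together the pair took 66.2% of alpha counts. In library 12 Trav10 held 2948 counts, close to the 2956 of Trav14d-1, and its copy Trav10d held 2068. No alpha segment led 2 of these 6 libraries. Outside the stimulated brain libraries, the 95% Clopper-Pearson intervals of these leading shares spanned at most 6.94 percentage points for alpha and 9.73 for beta, which covers counting error only. RNA reads without molecular identifiers are not independent molecules.

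The leading segments also varied in the other unstimulated brain groups. In young male brain, Trav16n took 95.5% of alpha counts in library 3 (95% interval 94.2% to 96.6%), where Trbv16 took 80.7% of beta counts. Young libraries 2, 4, 5 and 6 were led by Trav13-2 (30.6%), Trav13d-1 (29.3%), Trav8d-1 (31.98%) and Trav13d-1 (35.3%). Their leading beta segments were Trbv5 (30.98% in library 2 and 54.6% in library 4), Trbv3 (48.4% in library 5) and Trbv13-2 (45.9% in library 6). In aged female brain, Trav16 led libraries 13 (18.5%) and 15 (65.9%), and Trav10d led libraries 14 (48.7%), 16 (41.1%) and 17 (24.5%). Trav10d and its copy Trav10 differed at 3 of 406 bases in GENCODE M21, so their split is uncertain. The authors' files give other lengths, 405 bases for Trav10d and 343 for Trav10. With segments of identical GENCODE M21 transcripts summed, the leading alpha sequence became another one in 3 of the 30 libraries with at least 50 alpha counts. In female library 17, Trav6d-7 and Trav6n-7 held 608 counts each, together 38.3% of alpha counts and more than the 777 of Trav10d. In young library 4 it was Trav13d-2 with Trav13n-2 (34.3%), and in young library 6 Trav12d-2 with Trav12n-2 (41.7%). The leading beta segments were Trbv16 in female libraries 13 (46.8%) and 15 (59.96%), Trbv29 in library 14 (29.0%) and Trbv3 in libraries 16 (65.9%) and 17 (20.4%).

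The Trav16 copies printed above show how far copies were kept apart. Male brain library 10 held 6321 counts of Trav16n, 1537 of Trav16 and 1 of Trav16d-dv11. Young brain library 3 held 1180 counts of Trav16n, with 3 of Trav16 and 1 of Trav16d-dv11. Female brain library 15 held 9491 counts of Trav16 and 0 of either copy, and young library 4 held 424 counts of Trav16d-dv11, with 2 of Trav16 and 1 of Trav16n. Trav16n was the main copy of the 3 in male library 10 and young library 3, Trav16 the one counted in female library 15, and Trav16d-dv11 the main copy in young library 4, whose leading segment was Trav13d-1. In spleen the copies mostly occurred together: unstimulated libraries 30 to 34 held 427, 104, 676, 96 and 311 counts of Trav16, 172, 114, 422, 24 and 191 of Trav16n, and 108, 24, 38, 61 and 28 of Trav16d-dv11.

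How alike 2 libraries were was described by the Bray-Curtis distance of their segment shares, which is 0 for identical usage and 1 where no segment is shared; pairs share libraries, so no test was run. Between libraries of a group the median alpha distance was 0.838 in aged females, 0.946 in aged males and 0.978 in young males, all unstimulated brain. It was 0.641 in stimulated and 0.504 in unstimulated aged male spleen. For beta segments the within-group medians were 0.664 in aged females, 0.757 in aged males and 0.744 in young males for unstimulated brain, and 0.573 in stimulated spleen and 0.319 in unstimulated spleen. Between unstimulated aged male brain and spleen libraries the alpha median was 0.876. With alpha copies merged, the within-group median was 0.916 in aged male brain and 0.429 in unstimulated spleen.

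Some beta segments recurred across brain libraries. Trbv16 had 29 to 2702 counts in each of the 16 unstimulated brain libraries and took a mean of 32.3% of beta counts in aged females, 23.6% in aged males and 25.3% in young males. In spleen it took 12.2% ± 5.85 of beta counts in stimulated and 15.4% ± 3.78 in unstimulated cells. Trbv3 was also counted in all 16, with 2 to 2215 counts, and reached at least 10 counts in 13 of them. Trbv10, Trbv21 and Trbv30 had no count in any of the 16, and among others neither had Trav11, Trav11d or Trav13n-4. No comparison of Trbv16 between tissues, ages or sexes passed edgeR's test.

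**Figure D3:**
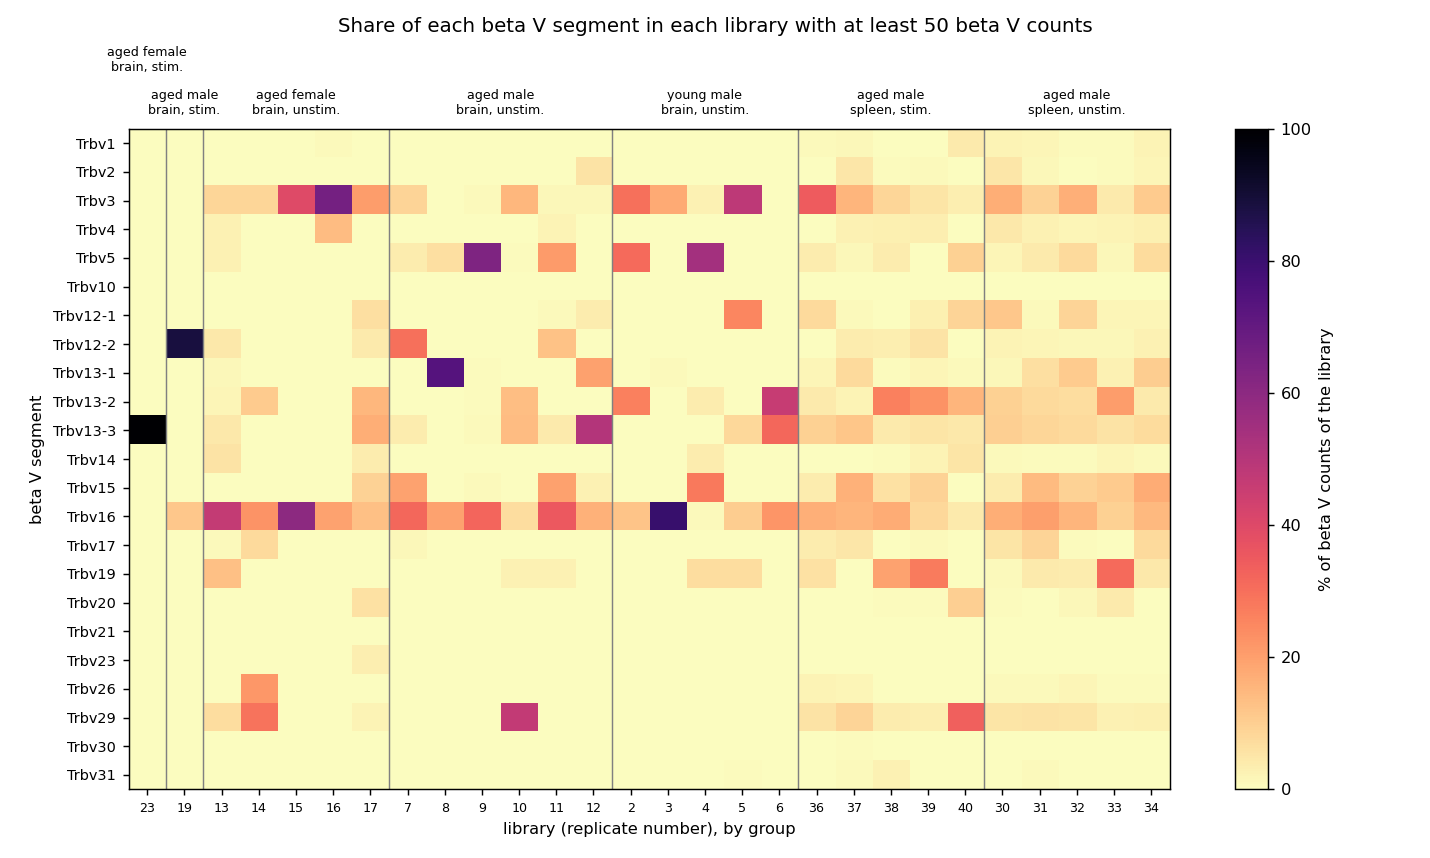
Share (% of beta V counts, colour scale) of each of the 23 beta segments (rows) in each library with at least 50 beta counts (columns, by group and replicate number). Trbv16 and Trbv3 are uneven across brain columns: in young male brain they ran from 0.786% to 80.7% and from 0.064% to 48.4%. Trbv3 had 0 counts in stimulated brain libraries 19 and 23. In unstimulated brain columns 2 to 8 segments hold 90% of beta counts, and in unstimulated spleen columns 9 to 12.

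Low counts were unevenly placed among the brain libraries. In the 11 unstimulated male brain libraries (aged and young), a segment had 1 to 9 counts in a library in 195 cases for alpha, and in 191 of these the segment had at least 100 counts in another of the 11 libraries. For beta this held in 49 of 50 cases. These low counts made up 0.638% of the alpha counts. In the 5 unstimulated female brain libraries it held in 5 of 16 alpha cases and 3 of 5 beta cases. The number of segments detected in male brain includes these low counts. With at least 10 counts required, aged male brain held 9.67 alpha segments and unstimulated spleen 55.8, with 5.67 and 16.6 beta segments (adjusted p = 0.0433 for both, exact permutation test).

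Single segments were compared with edgeR's quasi-likelihood test, with TMM scaling and p-values adjusted over all genes tested. Of the 47 V segments that passed the filter on low counts (34 alpha, 13 beta), 7 were lower and 0 higher in unstimulated aged male brain than in unstimulated aged male spleen, against 7.37% of all 11040 genes called in either direction, 4.02% lower and 3.35% higher. All 7 had 0 or 1 count over the 6 brain libraries and so passed the filter only through the spleen, which fixed their direction. The tally is a description: 85 segments did not pass the filter, among them 8 with at least 100 counts in a brain library. With 1 exception the called segments had 0 counts in all 6 brain libraries, so the fold is a lower bound set by 3 counts over the group. Trav13-4-dv7 had 107, 63, 110, 459 and 8 counts in spleen libraries 30 to 34 and was at least 521-fold lower in brain (edgeR adjusted p = 0.00547). Trav9-4 had 86, 51, 20, 36 and 88 counts in spleen and was at least 196-fold lower in brain (edgeR adjusted p = 0.00485). Trav6n-7 and Trav6d-7, copies identical in GENCODE M21 with 11 to 135 counts each in spleen, were each at least 212-fold lower (edgeR adjusted p = 0.00485). The groups did not overlap for these segments, but with 0 counts in every brain library this adds nothing to the calls. Trav8-2, with 9 to 104 counts in spleen, was at least 141-fold lower (edgeR adjusted p = 0.00507).

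The remaining calls rested on few or uneven counts. Trbv14 had 1 count over the brain libraries, in library 7, and 12, 11, 9, 28 and 22 counts in spleen libraries 30 to 34, a level 171-fold lower in brain with a counting interval of 29.9 to 6.85e+03 (edgeR adjusted p = 0.00454). Trav4-4-dv10 had 0 counts in brain and 28, 11, 36, 3303 and 57 in spleen, where library 33 alone gave 3303 of 3435 counts; it was at least 2394-fold lower over the group (edgeR adjusted p = 0.00805). Being without counts in aged male brain did not hold for all brain groups: aged female library 17 held 608 counts of Trav6n-7 and 401 of Trav4-4-dv10, and female library 13 held 90 of Trav9-4 and 29 of Trav13-4-dv7. Over the segments that passed the filter, a selection of the same kind, the median log2 fold change was -0.33 for alpha, with 16 of 34 above 0, and -0.54 for beta, with 5 of 13 above 0. Over all genes it was 0.31 with TMM scaling and -0.24 with unscaled totals. The number of segments called was 18 without spleen library 33 and 11 without brain library 10. It was 40 without the filter on low counts, 23 in a fit of all 35 libraries and 1 with alpha and beta families merged.

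The summed V level did not differ between the tissues beyond the spread. Alpha V segments came to 533 ± 270 CPM in unstimulated aged male brain and 446 ± 53.1 CPM in unstimulated spleen, and beta V segments to 128 ± 108 CPM in brain and 184 ± 43.8 CPM in spleen. Adjusted over the 16 tests of summed levels, the exact permutation p was 0.771 for alpha and 0.398 for beta. With TMM scaling alpha came to 663 ± 416 CPM in brain and 362 ± 34.6 CPM in spleen (adjusted p = 0.0693, exact permutation test). Trac, the alpha constant region, did not pass edgeR's test either (log2 fold change 0.90, SE 0.30, adjusted p = 0.0941). Cd3g and Cd8a, a receptor signalling subunit and a co-receptor chain, were higher in brain on the TMM scale (log2 fold changes 1.32 and 1.51, adjusted p = 0.000986 and 0.000712 in edgeR). Titles of spleen libraries are written without the hyphens that most brain titles carry; what this stands for is not stated, and it cannot be told apart from tissue.

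V usage in the brain did not differ detectably between aged and young males. The effective number of segments was 4.01 ± 1.52 in unstimulated aged and 4.06 ± 1.71 in young male brain for alpha (adjusted p = 0.970) and 3.13 ± 1.11 in aged and 2.74 ± 0.827 in young for beta (adjusted p = 0.667, exact permutation tests). Aged libraries held 26.8 ± 3.54 alpha and 10 ± 1.90 beta segments, and young libraries 25.2 ± 4.97 alpha and 9.2 ± 0.837 beta segments (adjusted p = 0.667 for both by the exact permutation test). The leading alpha segment took 41.6% ± 14.3 in aged and 44.5% ± 28.6 in young, where library 3 alone stood at 95.5%. Of the 8 segments tested with edgeR, 0 passed in either direction, against 0% of 8068 genes (0% higher, 0% lower), and 0 passed in DESeq2. The test left out 124 segments that did not pass the filter. Among them 38 had at least 100 counts in an aged library, and 24 in a young one. At an unadjusted p below 0.05 edgeR gave 1. This was Trbv3, at 73, 2, 4, 184, 59 and 74 counts in aged libraries 7 to 12 and 1394, 597, 96, 702 and 2 counts in young libraries 2 to 6 (log2 fold change -3.77, SE 1.496, edgeR adjusted p = 0.994). The groups overlapped, because young library 6 was as low as the lowest aged library.

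Between aged female and aged male unstimulated brain no difference in V usage passed either. The effective number was 5.18 ± 3.68 in females and 4.01 ± 1.52 in males for alpha, and 4.08 ± 2.36 in females and 3.13 ± 1.11 in males for beta (adjusted p = 0.667 and 0.6246, exact permutation tests). Female libraries were more uneven in the alpha segments they held. Female libraries 13 to 17 held 42, 13, 11, 6 and 12 alpha segments, against 23 to 31 in males (adjusted p = 0.338, exact permutation test). Library 13 was above all males and the other 4 females were below them; without library 13 the mean difference was -16.3 segments and the adjusted p was 0.0476. With at least 10 counts required, libraries held 13.6 alpha segments in females and 9.67 in males (adjusted p = 0.808, exact permutation test), and thinned to 50 counts they held 8.47 in females and 7.50 in males. Library 13 also held 12706 detected genes, the most of its group, against 8979 to 10756 in male libraries. The filter left out 124 segments, among them 32 with at least 100 counts in a female library, and 38 in a male one. Of 8 segments tested with edgeR, 0 passed, against 0.15% of 8691 genes (0% higher, 0.15% lower). There was 1 at an unadjusted p below 0.05 and 1 called higher by DESeq2. The segment with the low unadjusted p, Trbv3, had 112, 174, 748, 2215 and 764 counts in females and 2 to 184 in males (log2 fold change 4.36, SE 1.26, adjusted p = 0.430 in edgeR).

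**Figure D4:**
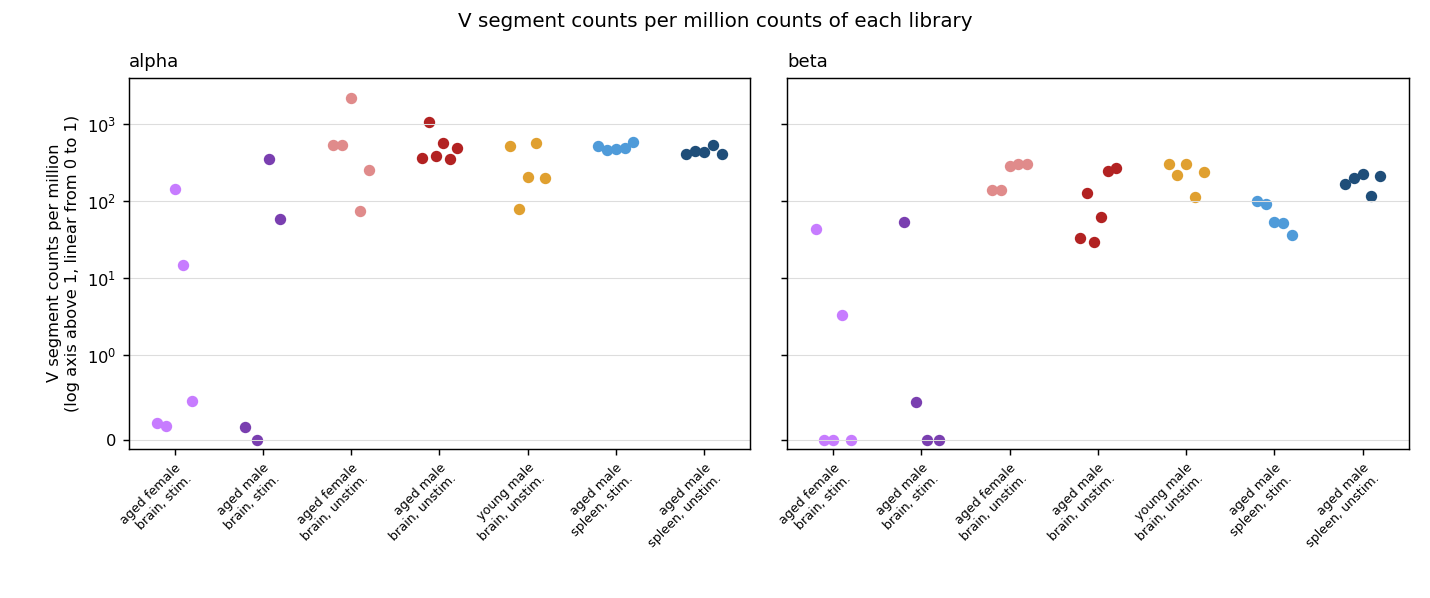
Summed CPM of alpha (left) and beta (right) V segments in each library, by group. The y axis is logarithmic above 1 and linear between 0 and 1. Libraries of stimulated brain cells lie at 0 to 355 CPM for alpha and 0 to 52.7 CPM for beta. The other libraries reach down to 72.8 CPM for alpha (unstimulated aged female brain) and 28.9 CPM for beta (unstimulated aged male brain), so the ranges overlap.

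After stimulation, brain libraries held few or no V segment counts. Stimulated aged female libraries 23 to 27 held 1, 1, 1312, 58 and 1 alpha counts and 214, 0, 0, 13 and 0 beta counts. Stimulated aged male libraries 19 to 22 held 1, 0, 1366 and 68 alpha counts and 337, 1, 0 and 0 beta counts. Female library 26 was the only one of the 9 with more than 1 count of both chains. Scaled to library totals, no summed V level passed its exact permutation test. Alpha V segments came to 31.6 ± 62.3 CPM in stimulated and 713 ± 834 CPM in unstimulated female brain. In males they came to 103 ± 170 and 533 ± 270 CPM in the same order (adjusted p = 0.0610 in both sexes, groups overlapping). For beta the adjusted p was 0.0610 in females and 0.0762 in males. With TMM scaling the adjusted p-values were 0.0635 to 0.168 by the same test. Where counts were present, they came from a few segments. Trav12-3 made up 86.1% of alpha counts in female library 25, Trav7n-6 90.8% in male library 21 (the rest was its copy Trav7-6) and Trav4-4-dv10 all 68 counts of male library 22. Trbv13-3 made up all 214 beta counts of female library 23, and Trbv12-2 88.4% of those of male library 19, with Trbv16 for the rest.

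Segments detected were 2.0 ± 1.41 for alpha and 0.40 ± 0.548 for beta in stimulated aged female brain, against 16.8 ± 14.3 and 8.0 ± 4.90 in unstimulated aged female brain. In males they were 1.0 ± 0.816 for alpha and 0.75 ± 0.957 for beta in stimulated brain, against 26.8 ± 3.54 and 10 ± 1.90 in unstimulated brain. None of the 4 pairs of groups overlapped, and each exact permutation test gave an adjusted p of 0.0423. Without any single library of these groups the adjusted p was 0.0519 to 0.0577 in females and 0.0577 to 0.0952 in males. Thinning to 50 counts left 2 stimulated libraries of each sex for alpha and gave adjusted p-values of 0.361 in females and 0.234 in males by the exact permutation test. Among the stimulated females, libraries 26 and 27 have titles without hyphens; without them the adjusted p was 0.107 for both chains by the same test.

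Of the 5 segments that edgeR could test in males, 4 were lower in stimulated than in unstimulated brain, against 38.1% of 7540 genes called, 36.4% lower and 1.75% higher. All 4 had 0 counts in the 4 stimulated libraries and passed the filter only through the unstimulated group, so their direction was fixed by it. Trav16 was at least 133-fold lower (3213 counts over the 6 unstimulated libraries, edgeR adjusted p = 0.0167), Trbv13-3 at least 133-fold (3233 counts, adjusted p = 0.0243), Trbv5 at least 57.2-fold (1387 counts, adjusted p = 0.0247) and Trbv3 at least 16.3-fold (396 counts, adjusted p = 0.0337). Without unstimulated library 7 the number called was 0, and without 8, 9, 10, 11 or 12 it was 1 or 2. In females 1 of 2 segments tested passed, against 6.09% of 6305 genes, 4.17% lower and 1.92% higher. This was Trbv3, which passed the filter in the same way. It had 0 counts in stimulated libraries 23 to 27 and 112, 174, 748, 2215 and 764 in unstimulated libraries 13 to 17, and was at least 644-fold lower (adjusted p = 0.0257 in edgeR). It was not called without unstimulated library 13, 14, 16 or 17, and the count was 2 without unstimulated library 15 and 3 without stimulated library 26.

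Of the constant regions, 2 of 4 tested were lower in stimulated than in unstimulated male brain and 1 of 5 in female brain, beside 36.4% and 4.17% of all genes called lower. Trbc1 did not pass in either sex, and in males its log2 fold change was 0.50 (SE 1.69, edgeR adjusted p = 0.854). Trbc2, a beta constant region, had 0 counts in all 9 stimulated brain libraries and 182 to 3712 counts in the 16 unstimulated ones. Trac had 1212, 34, 793, 25 and 3 counts in stimulated female libraries 23 to 27, and 705, 52, 1 and 0 in stimulated male libraries 19 to 22, against 479 to 18752 in the unstimulated brain libraries. Male library 21, with 1366 alpha V counts, had 1 count of Trac. Gamma chain V segments had 817 counts in stimulated female library 25 and 908 and 1505 counts in stimulated male libraries 20 and 22, against 0 to 18 in the other 6. The part of the high mitochondrial share and the low number of detected genes in these results was not tested.

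Against stimulated aged male spleen, stimulated aged male brain held 1.0 ± 0.816 and 64.6 ± 10.6 alpha segments in that order, and 0.75 ± 0.957 and 15.6 ± 2.61 beta segments. The exact permutation p was 0.0159 for both, the smallest possible for 4 against 5 libraries, and 0.0577 after adjustment. Of 35 segments tested with edgeR, 28 were lower in stimulated brain (24 alpha, 4 beta), against 48.5% of 9135 genes called, 46.7% lower and 1.82% higher. These 28 segments had 0 or 1 count over the brain libraries and passed the filter only through the spleen, which fixed their direction. Of them 26 had 0 counts in brain and were at least 11.2-fold to 129-fold lower. The largest fitted changes were those of Trav16, Trav13n-4, Trav16n, Trav6d-6 and Trav7-4, with 1352, 947, 1089, 966 and 754 counts over the 5 spleen libraries. Without spleen library 36, 37, 39 or 40 the number called was 14 to 18. Between stimulated aged female and aged male brain no V segment passed the filter (0% of 3159 genes were called), and segments detected were 2.0 ± 1.41 in females and 1.0 ± 0.816 in males for alpha (adjusted p = 0.6246) and 0.40 ± 0.548 in females and 0.75 ± 0.957 in males for beta (adjusted p = 0.884, exact permutation tests).

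In the spleen, stimulation left alpha usage undistinguished, and beta segments took a smaller part of the V counts. The effective number of alpha segments was 18.4 ± 12.4 in stimulated and 23.1 ± 11.96 in unstimulated aged male spleen (adjusted p = 0.667), and of beta segments 6.79 ± 1.42 in stimulated and 9.16 ± 1.79 in unstimulated (adjusted p = 0.159, exact permutation tests). Stimulated libraries 36 to 40 gave 5.73, 9.24, 6.57, 6.46 and 5.93 for beta, so that library 37 lay among the unstimulated libraries. Without unstimulated library 33 the mean difference was -3.17 and the adjusted p was 0.0488. Segments detected were 64.6 ± 10.6 in stimulated and 70.2 ± 10.5 in unstimulated for alpha (adjusted p = 0.6246), and 15.6 ± 2.61 and 19.4 ± 1.52 for beta in the same order (adjusted p = 0.122, exact permutation tests). The leading beta segment was a different one in each of the 5 stimulated libraries: Trbv3 (34.6%), Trbv15 (16.2%), Trbv13-2 (26.2%), Trbv19 (27.7%) and Trbv29 (33.3%) in libraries 36 to 40.

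Beta V segments made up 11.5% ± 4.57 of all V counts in stimulated spleen (5.84% to 16.4%) and 29.2% ± 6.80 in unstimulated spleen (17.7% to 34.6%). The groups did not overlap in this share, which was not tested. Summed beta V levels were 98.9, 89.9, 52.4, 50.9 and 36.02 CPM in stimulated libraries 36 to 40 and 167, 200, 227, 116 and 209 CPM in unstimulated libraries 30 to 34. All stimulated libraries were lower than all unstimulated ones, and the exact permutation p of 0.00794, the smallest possible, was 0.0610 after adjustment over the 16 tests of summed levels. On the TMM scale the beta groups overlapped, at 82.1 ± 33.1 CPM in stimulated and 147 ± 38.5 CPM in unstimulated spleen (adjusted p = 0.127, exact permutation test). Summed alpha V levels were 505 ± 47.7 CPM in stimulated and 446 ± 53.1 CPM in unstimulated spleen (adjusted p = 0.190) with unscaled totals, and 643 ± 127 and 355 ± 33.2 CPM in the same order on the TMM scale (adjusted p = 0.0635, exact permutation tests).

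None of the 71 V segments tested in spleen passed edgeR's test, against 18.7% of 11107 genes, 12.6% higher and 6.12% lower; 2 alpha and 1 beta segment had an unadjusted p below 0.05, and DESeq2 called 1 segment higher. Without unstimulated library 33 edgeR called 5 segments, 3 higher and 2 lower, and without libraries 33, 38 and 39 it called 5, all higher. It called 1 without stimulated library 37 and 2 without library 36 or library 38. The median log2 fold change was 0.60 over 55 alpha segments (45 above 0), -0.93 over 16 beta segments (1 above 0) and -0.07 over all genes. With unscaled totals these medians were -0.09 for alpha (25 above 0), -1.56 for beta (0 above 0) and -0.73 for all genes, and 5 segments were called, all lower. On both scales alpha segments thus lay above and beta segments below the median gene. Of 6 receptor constant regions tested, 1 was higher and 1 lower. Trac was higher on the TMM scale (496 ± 37.3 CPM in stimulated and 317 ± 97.2 CPM in unstimulated spleen, log2 fold change 0.65, edgeR adjusted p = 0.0185), but stood at 396 ± 60.8 CPM in stimulated and 400 ± 137 CPM in unstimulated spleen with unscaled totals. Trbc2 was lower on the TMM scale (log2 fold change -0.49, adjusted p = 0.0306 in edgeR) and stood at 59.3 ± 10.3 CPM in stimulated and 131 ± 12.2 CPM in unstimulated spleen with unscaled totals.

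In 3 of the 10 spleen libraries V usage was alike across the stimulation groups: stimulated libraries 38 and 39 and unstimulated library 33. Trav4-4-dv10 took 39.4% and 42.0% of alpha counts in stimulated libraries 38 and 39 and 41.8% in unstimulated library 33, against 0.267% to 7.10% in the other 7 spleen libraries. Trav13n-4 took 12.5%, 9.15% and 12.5% in the same libraries in that order, against 0% to 1.51% in the others. Trbv19 took 19.3%, 27.7% and 31.04% of beta counts, against 0% to 6.01%, and Trbv13-2 took 26.2%, 23.03% and 20.3%, against 2.24% to 15.4%. Among the other 7 libraries the share of Trav4-4-dv10 was highest in stimulated library 40, where it was also the leading alpha segment, with 461 counts. Trbv13-2 was the second beta segment of library 40, with 62 counts after 134 of Trbv29.

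Distances between libraries were also low among these 3. The alpha Bray-Curtis distance among these 3 libraries was 0.185 to 0.234, lower than any of the other 42 pairs of spleen libraries (0.325 to 0.808). For beta it was 0.135 to 0.274, within the range of the other pairs (0.149 to 0.723). The effective number of alpha segments was 5.26 and 5.003 in stimulated libraries 38 and 39 and 4.96 in unstimulated library 33, against 19.1 to 35.6 in the other 7. Gamma chain constant regions came to 215 and 201 CPM in stimulated libraries 38 and 39, against 25.7 to 46.9 CPM in the other stimulated libraries, and to 355 CPM in unstimulated library 33, against 126 to 196 CPM in the other unstimulated libraries. Segments named as delta V only (Trdv) had 0 counts in all 3. Trav4-4-dv10, which led all 3, can also join the delta locus. The delta constant region, Trdc, was not found by that symbol in the count table. Alpha and delta use of these counts therefore cannot be told apart. Whether the 3 libraries share cells, an animal or a preparation was not tested, and the labels do not say.

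**Figure D5:**
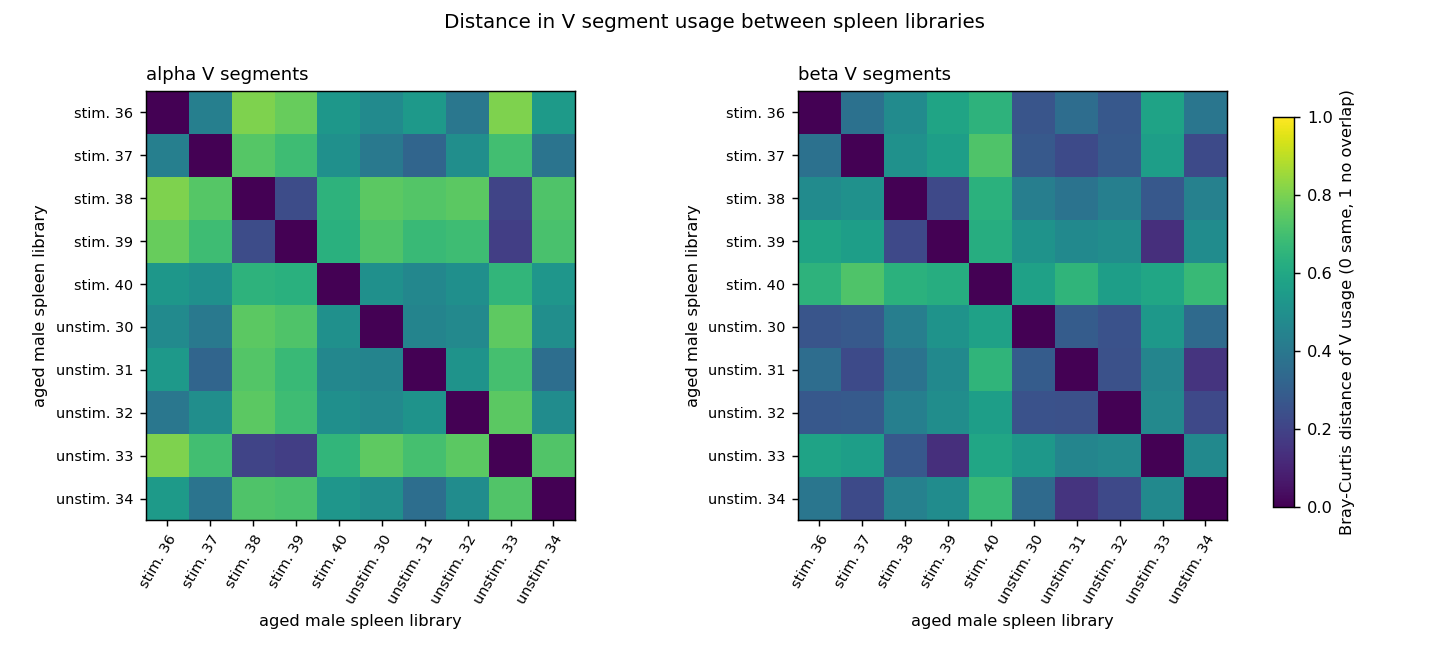
Bray-Curtis distance of V segment usage between the 10 aged male spleen libraries (0 identical, 1 nothing shared), alpha on the left and beta on the right; axes give the stimulated libraries 36 to 40 and then the unstimulated libraries 30 to 34. Stimulated libraries 38 and 39 and unstimulated library 33 are near each other (0.185 to 0.234 for alpha), and the other alpha pairs lie at 0.325 to 0.808.

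V segments of innate-like T cells were scarce. Trav11, the alpha segment of the invariant natural killer T cell receptor in mice, had 0 counts in all 25 brain libraries and 1 to 21 counts in 7 of 10 spleen libraries; its copy Trav11d had none anywhere. Trav1, the segment of mucosal-associated invariant T cells, had 12 counts in female brain library 13, 2 in stimulated spleen library 37 and 5 in unstimulated spleen library 32. Genes that carry out or mark ongoing V(D)J recombination were near 0 too: Rag1 had 6 counts in unstimulated spleen library 30 and none elsewhere, and Rag2 had 9 in stimulated spleen library 36 and none elsewhere. Dntt, which adds bases at the joints, was at 0 to 10 counts except in 2 young male brain libraries, with 362 and 179. Beta joining and diversity segments, which are short, had 0 counts in every library. Of the 6 tested genes of the recombination machinery and end joining, 0 passed between unstimulated aged male brain and spleen, while 1 was higher and 1 lower in stimulated than in unstimulated spleen. Of the 6 CD3 and co-receptor genes, 2 were higher in unstimulated aged male brain than in spleen, and 0 passed between stimulated and unstimulated spleen. Over all genes tested, 3.35% were higher and 7.37% passed in either direction between brain and spleen, and 12.6% were higher and 6.12% lower with stimulation in spleen, 18.7% in all.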

How the data were processed

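RNA of sorted mouse CD8 T cells was sequenced in 35 libraries, which the labels place in 7 groups. Per the submitters' processing notes the authors used Bowtie2 2.2.0 and RSEM 1.2.12 on the mm10 build; the annotation release and strand setting are not given. Per the file headers, the authors' sample files hold RSEM expected counts, which need not be whole. Per the file headers, the same files hold the authors' TPM values, used only in an alternative. The authors' FPKM values, per the file headers, were not used. The deposited series table holds whole-number counts for 38924 genes, which differed from the expected counts by at most 0.5. RSEM shares reads between similar genes, so single alpha copies are uncertain.

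Usage was computed per chain: segments with at least 1 count, the share of the leading segment, and the effective number (unbiased inverse Simpson index), the last 2 for chains with at least 50 counts. Groups were compared with exact two-sided permutation tests over samples, adjusted by Benjamini-Hochberg over 40 tests; 8 further comparisons had too few libraries. Single segments were tested in R 4.3.3 with edgeR 4.0.16 (TMM, filterByExpr with a minimum count of 10, robust quasi-likelihood fit of the 2 groups compared), adjusted over all genes tested, with a threshold of 0.05; DESeq2 1.42.0 was an alternative. The procedures were tested on simulated data. Summed V levels were tested over 16 comparisons, a test added after the data were seen. For a group without counts, a bound on the fold was set by 3 counts over the group. Python 3.11.15 with scipy 1.17.1 and matplotlib 3.10.9 was used, and positions are from GENCODE M21. Named segments are the leading ones of each library and group, up to 5 per direction past the threshold, and Trav1, Trav11 and Trav11d. For unstimulated aged male brain against spleen all 7 past the threshold are named. Trav16 copies and segments of the alike spleen libraries were named after their values were seen. The members and lists were chosen with earlier results of these data known.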

Additional observations from a re-analysis of the deposited data

Results flagged for a closer look

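In 14 of 48 sets of values of one group, a library stood far from the rest of its group by Dixon's test, which flags about 1 in 20 groups by chance. Stimulated spleen library 37 had a beta effective number of 9.24. Unstimulated spleen library 33 had a beta effective number of 5.979, leading shares of 41.83% for alpha and 31.04% for beta, and 52 detected alpha segments. Young male brain library 3 had an alpha effective number of 1.097 and a leading alpha share of 95.47%. Unstimulated aged female brain library 13 had 42 detected alpha segments.

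Summed alpha V levels stood apart in stimulated aged female brain library 25 (142.5 CPM), stimulated aged male brain library 21 (354.8 CPM), unstimulated aged female brain library 15 (2163 CPM) and unstimulated aged male brain library 8 (1059 CPM). Summed beta V levels stood apart in stimulated aged female brain library 23 (43.49 CPM) and stimulated aged male brain library 19 (52.73 CPM).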

How the results depend on the processing

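No usage measure, summed level or named segment's fold change that passed its threshold changed sign under the alternatives run. Values that did not pass changed sign in 31 cases, over 14 results, and 0 of these passed afterwards. No paired analysis was possible because the groups share no replicate numbers. Differences in this section are the first-named group minus the second. For unstimulated aged male brain against spleen, merging families gave a leading alpha share difference of 32.93 percentage points, which passed, and an alpha detected difference of -3.133, which did not; leaving out spleen libraries 33, 38 and 39 gave 30.67 points, which passed. For stimulated against unstimulated aged male brain, the beta detected difference was -5.167 with at least 10 counts, and thinning to 50 counts gave -6.005 for alpha and -3.52 for beta. Thinning gave -5.298 for alpha in aged female brain and -9.333 for beta between stimulated brain and spleen. With hyphenated titles only, the female differences were -15.13 for alpha and -7.667 for beta. The cause of these changes was not tested; thinning also removes libraries under 50 counts.

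The differences that changed sign were these. The leading alpha share between aged and young male brain was -2.928 points, but 3.777 with copies merged, 1.647 with families merged and 0.4994 from TPM, and the effective number of alpha segments 0.3986 by the Shannon index against -0.05049. Between female and male unstimulated brain, the alpha detected difference of -10.03 was 3.933 with at least 10 counts and 0.9637 with thinning, and the beta one of -2 was 0.6333 with at least 3 counts, 1.333 with at least 10 and 0.8198 with thinning. The leading alpha share with stimulation in spleen was 5.036 points, and -1.146 without libraries 33, 38 and 39. The summed beta level of brain against spleen was -55.57 CPM, and 2.802 with TMM scaling. Leaving out single libraries, the ranges through 0 were -0.7923 to 0.259 (alpha effective number), -6.871 to 9.806 and -6.944 to 5.487 points (leading alpha and beta share) between ages; -0.3342 to 1.952, -8.423 to 3.441 points (leading alpha share) and -182.8 to 339.7 CPM (alpha) between the sexes in unstimulated brain; -0.6 to 0.06667 (beta detected), -106.3 to 11.96 CPM (alpha) and -12.47 to 9.207 CPM (beta) in stimulated brain; and -17.98 to 124 CPM (alpha) for brain against spleen. In unstimulated libraries the alpha CPM difference was negative without female library 15 between the sexes and without male brain library 8 between the tissues.

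The number of segments called moved as follows. In stimulated against unstimulated spleen it was 0, but 1 with DESeq2, no filter, families merged or copies merged, and 5 with unscaled totals or without libraries 33, 38 and 39. In unstimulated brain against spleen it was 7, but 40 with no filter, 23 with all 35 libraries, 1 with families merged and 18 without those 3 libraries. Between ages it was 0, and 1 with no filter. In stimulated against unstimulated male brain it was 4, but 17 with no filter and 29 with all libraries. In females it was 1, but 2 with DESeq2, families merged or copies merged, 5 with no filter, 22 with all libraries and 0 with hyphenated titles. Between the sexes it was 0, but 1 with DESeq2 in unstimulated and 5 with all libraries in stimulated brain. Between stimulated brain and spleen it was 28, and 13 with families merged.

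Leaving out each library in turn gave these ranges. For unstimulated brain against spleen the effective number difference was -23.66 to -16 for alpha and -6.821 to -5.742 for beta, the leading share difference 20.54 to 30.67 points for alpha and 25.35 to 33.72 for beta, and the detected difference -47.92 to -41.17 for alpha and -10 to -9 for beta. For stimulated against unstimulated brain the detected difference in males was -26.6 to -25 for alpha and -9.667 to -8.85 for beta, and in females -17.5 to -8.5 for alpha and -8.85 to -5.85 for beta. The beta effective number difference in spleen with stimulation was -3.165 to -2.090, and the alpha detected difference between the sexes -16.33 to -7.333. Segments called were 0 to 5 in spleen with stimulation, 7 to 18 for unstimulated brain against spleen, 0 to 4 in male and 0 to 3 in female brain with stimulation, and 14 to 31 for stimulated brain against spleen. Depth limits the stimulated brain libraries most, where 4 held at least 50 alpha counts and 2 at least 50 beta counts.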
